A study of Mus musculus with 6 samples.

Results

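Endothelial cell marker genes were followed in 6 mouse tumours, as a set of 35 gene symbols out of 19937 genes that a single-gene probe set measured. The symbols were listed by name, and a gene entered through a probe set whose platform annotation names that gene alone. Each of the 35 was measured, by 1 such probe set. Sorted by textbook role, the set held 28 pan-endothelial genes (12 of surface and junction, 7 of receptors and signalling, 3 secreted and 6 transcription factors), 4 tip cell genes and 3 arterial genes.

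The E2 group was 3 tumours from SCID mice with 17β-estradiol (E2) pellets, and the placebo group 3 tumours from SCID mice with placebo pellets. All 6 grew from injected MASE2 cells, a line cultured from ascites of a tgCAG-LS-TAg mouse, in which an adenovirus carrying Cre (AdCre), injected into the ovarian bursa, had switched on SV40 large and small T antigens in the ovarian surface epithelium. That donor mouse had itself received E2, so the cells of both groups share this history and come from 1 line. Each mouse was followed until loss of wellness, when its tumour was taken. The sources used here give no pellet dose, host age or day of collection. SCID mice keep their own blood vessels, and both host and injected cells are of mouse origin, so a probe set cannot tell their RNA apart.

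Endothelial cells line blood vessels, and their adherens junctions, angiopoietin receptors and lineage transcription factors of the ETS and SOX families mark them in most tissues. When a vessel sprouts, a tip cell leads under VEGF signalling and expresses its own set of secreted and Notch pathway genes, while arterial endothelium keeps Notch signalling and particular connexins. In ovarian tissue and its tumours, vessels are renewed and remodelled by the same growth factors.

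The deposited values are log2 probe set signals made by RMA. The array medians over 34760 probe sets were 4.90, 4.84 and 4.85 in the E2 tumours, against 4.92, 4.97 and 4.95 in the placebo tumours. Every E2 array thus had a lower median than every placebo array, while the medians of genes overlapped. Some values are therefore also given after median centring. The number of arrays limits the precision, and the depth of a sequencing library has no counterpart here. The array of placebo replicate 3 stood apart, with a Pearson r across genes (which are not independent) of 0.857 to 0.865 with the others, against 0.960 to 0.994 among those. Intestinal markers were high on it. The mean of the 9 measured enterocyte markers was 10.52 there, against 4.19 to 4.53 in the E2 tumours and 4.34 to 4.38 in the other placebo tumours. Its part in the endothelial values was not tested, so results are given with and without this array. Among the placebo arrays, 15 of the 35 endothelial genes were highest in replicate 3 and 13 were lowest there.

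The endothelial label was checked first with Pecam1, which encodes an adhesion molecule of endothelial contacts, and Cdh5, the VE-cadherin of their adherens junctions. Pecam1 measured 5.78, 5.48 and 6.02 log2 units in the E2 tumours, against 6.25, 6.48 and 6.49 in the placebo tumours. Cdh5 measured 5.66, 5.19 and 5.71 in the E2 tumours, against 6.19, 6.24 and 6.03 in the placebo tumours. Pecam1 lay above the median of genes on every array and Cdh5 on all but 1, E2 replicate 2, and for both genes every E2 tumour was below every placebo tumour. The tissue was profiled in bulk, so fewer endothelial cells and less RNA per cell cannot be told apart. Of the whole set, 12 genes lay above the array's median of genes (5.26 to 5.41) on all 6 arrays, 13 lay below it on all 6, and 0 lay below the lower quartile (4.22 to 4.39) on any array. RMA compresses differences near background, so changes of the dimmer genes can be understated. Changes over all genes also differed with signal. Their median log2 change was 0.14 over genes above the median signal, against -0.01 over all genes tested. The all-gene shares given below are not matched for signal, and the part of signal level in the endothelial values was not tested.

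Esm1 alone among the 35 passed the test, and it was higher in the E2 tumours. It encodes endocan, a proteoglycan secreted by activated and tip cell endothelium, and measured 6.48, 6.43 and 5.81 in the E2 tumours, against 4.63, 4.49 and 4.59 in the placebo tumours. Which cells made the Esm1 signal was not tested. All 3 E2 tumours were above all 3 placebo tumours, with E2 replicate 3 the lowest of the E2 values. The means were 6.24 ± 0.37 in the E2 tumours and 4.57 ± 0.07 in the placebo tumours (SD, n = 3 each). The log2 change of Esm1 was 1.67 (95% confidence interval 1.2 to 2.14, SE 0.19), so that it rose 3.18-fold (limma, adjusted p = 0.0221). Over all genes, 1.06% were called higher by this rule (an adjusted p under 0.05). Leaving out an array kept the log2 change between 1.55 and 1.89, but the call was lost without placebo replicate 1 (adjusted p = 0.0887), placebo replicate 2 (0.0628), E2 replicate 1 (0.111) or E2 replicate 2 (0.134). It was kept without placebo replicate 3 (log2 change 1.68, adjusted p = 0.00176) or E2 replicate 3.

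Promoters of Esm1, Dll4, Tek and Tie1 are shown because the first rose, the second is a tip cell gene that lay lower, and the angiopoietin receptor pair lay lower together in every E2 tumour. They run from 250 bases before to 50 after the gene start in RefSeq, build GRCm38.p6, 5′ to 3′ on the gene's strand, with the ETS core GGAA on either strand (read as TTCC on the other) in capitals. Esm1 is at chr13:113209409-113209708 (plus strand), Dll4 at chr2:119325534-119325833 (plus), Tek at chr4:94739039-94739338 (plus) and Tie1 at chr4:118489800-118490099 (minus).
Esm1: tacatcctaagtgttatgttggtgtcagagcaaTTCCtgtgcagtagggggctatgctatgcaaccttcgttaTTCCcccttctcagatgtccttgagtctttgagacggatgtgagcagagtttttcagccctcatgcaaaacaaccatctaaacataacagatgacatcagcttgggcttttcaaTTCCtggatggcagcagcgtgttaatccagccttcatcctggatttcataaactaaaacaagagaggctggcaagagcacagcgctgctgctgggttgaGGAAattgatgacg
Dll4: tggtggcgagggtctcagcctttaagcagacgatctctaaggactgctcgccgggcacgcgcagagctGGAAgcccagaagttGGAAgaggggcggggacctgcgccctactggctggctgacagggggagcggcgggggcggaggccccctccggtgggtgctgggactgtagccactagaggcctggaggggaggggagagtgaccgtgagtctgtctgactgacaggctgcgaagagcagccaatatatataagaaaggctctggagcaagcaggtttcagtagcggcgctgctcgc
Tek: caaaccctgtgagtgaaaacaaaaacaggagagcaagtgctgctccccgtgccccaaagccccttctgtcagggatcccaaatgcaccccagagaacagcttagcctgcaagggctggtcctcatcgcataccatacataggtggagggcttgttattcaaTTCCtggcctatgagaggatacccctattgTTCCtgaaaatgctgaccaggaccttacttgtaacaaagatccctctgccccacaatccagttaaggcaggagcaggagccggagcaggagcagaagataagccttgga
Tie1: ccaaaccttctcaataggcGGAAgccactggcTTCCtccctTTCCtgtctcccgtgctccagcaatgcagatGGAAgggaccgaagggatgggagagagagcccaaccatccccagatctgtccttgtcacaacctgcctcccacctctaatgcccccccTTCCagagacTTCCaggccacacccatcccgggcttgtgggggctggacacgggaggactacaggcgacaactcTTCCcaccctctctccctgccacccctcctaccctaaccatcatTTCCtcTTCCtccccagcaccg

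The core appeared 4 times in the Esm1 window, 2 times in those of Dll4 and Tek and 9 times in that of Tie1. It is short, and 96.0% of the 32851 promoters in the table hold it. Of the 35 genes, 16 had a promoter in the table, and 15 of these held the core. The longer ETS site CCGGAAGT, which contains the core, was in 0 of the 16 and in 3.89% of all promoters. AGGTCA, a single arm of the oestrogen response element, was in the promoters of Egfl7, Emcn, Erg and Robo4 (4 of 16, against 16.3% of all), and the full palindromic element was in 0 of the 16 and 0.07% of all, with both strands searched for every motif. These are matches of letters within the windows only.

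Of the 35 genes, 0 were called lower by limma, against 0.326% of all genes. At an unadjusted limma p under 0.05, 13 of the 35 (37.1%) were lower in the E2 tumours, against 6.16% of all genes, and Esm1 alone was higher, against 10.4%. This total of 14 was 8 without placebo replicate 2 or without E2 replicate 2, and 9 after median centring. The share of all genes at this p was not counted under these alternatives. Every E2 tumour lay below every placebo tumour for 16 of the 35 genes (45.7%), against 11.4% of all genes, and above for Esm1 alone, against 14.9% of all genes. Of the 35, 30 (85.7%) had a lower mean in the E2 tumours and 5 (Esm1, Angpt2, Cd34, Ecscr and Icam2) a higher one. Of all genes, 51.7% had a lower mean. The number of lower members was 29 after repeated quantile normalization and 26 after centring each array on its median, with the all-gene shares not counted there. The median log2 change was -0.26 over the set and -0.01 over all genes tested. These medians were -0.19 and 0.01 after repeated quantile normalization, and -0.18 and 0.08 after median centring. The set was chosen with earlier results of these data known, and its genes are not independent. Its shares, here and below, are therefore a description and not a test of the set.

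**Figure D1:**
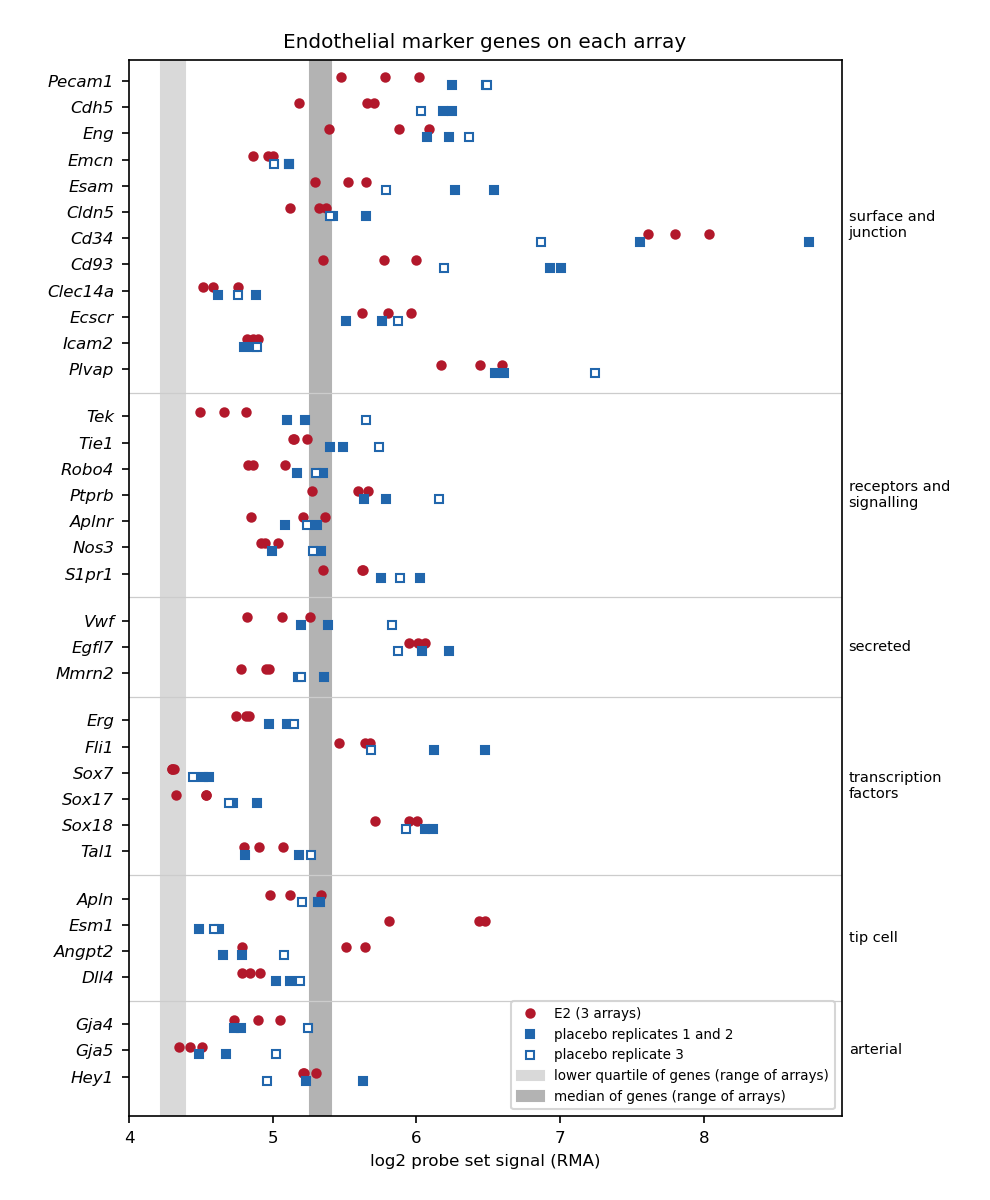
Log2 RMA signal (x axis) of each of the 35 endothelial marker genes (rows, by role) on each array, with E2 tumours as red circles, placebo replicates 1 and 2 as filled blue squares and placebo replicate 3 as an open square; grey bands give the range of the arrays' lower quartiles and medians of genes. Esm1 is the row where the 3 E2 tumours sit to the right of all placebo tumours, while for 16 genes they sit to the left.

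Without placebo replicate 3, 6 of the 35 genes (17.1%) fell and Esm1 rose at a limma adjusted p under 0.05. In that fit 5.21% of all genes were called lower and 6.4% higher. The 6 were Cd93 (log2 change -1.26), Esam (-0.91), Fli1 (-0.71), Cdh5 (-0.70), Pecam1 (-0.61, adjusted p = 0.0498) and Tek (-0.51). The median log2 change over the set was -0.22 in this fit, and 30 of the 35 means were lower. Down-weighting arrays by their spread, which gave placebo replicate 3 a weight of 0.149, called the same 6 genes lower and Esm1 higher. That weighted fit called 3.81% of all genes lower and 5.15% higher. Since placebo replicate 3 counted for little in it, it is not separate support for the fit without that array. Leaving out any other array called 0 members lower.

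Among the 12 surface and junction genes, 9 had a lower mean in the E2 tumours, 0 passed on 6 arrays and 4 fell without placebo replicate 3. Cd93, a transmembrane lectin-like receptor of endothelium that myeloid cells also carry, measured 5.78, 5.35 and 5.99 in the E2 tumours, against 6.93, 7.01 and 6.19 in the placebo tumours. Its groups did not overlap, with placebo replicate 3 differing by -0.78 log2 units from the other placebo tumours' mean. The log2 change of Cd93 was -1.0 (SE 0.27, limma adjusted p = 0.157).

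Esam, an adhesion molecule of endothelial tight junctions, measured 5.52, 5.30 and 5.65 in the E2 tumours, against 6.27, 6.54 and 5.79 in the placebo tumours. Again no E2 tumour reached a placebo tumour, and placebo replicate 3 was the placebo tumour closest to them. Its log2 change was -0.71 (SE 0.21, limma adjusted p = 0.182). Pecam1 averaged 5.76 ± 0.27 in the E2 tumours and 6.41 ± 0.14 in the placebo tumours, and Cdh5 5.52 ± 0.29 in the E2 tumours and 6.15 ± 0.11 in the placebo tumours (SD, n = 3 each). For Pecam1 and Cdh5 the log2 changes were -0.65 (SE 0.16, adjusted p = 0.13) and -0.64 (SE 0.16, adjusted p = 0.137) in limma. The other 8 genes of this group were Eng, an accessory receptor of TGF-beta and BMP signals (-0.44), Plvap, which forms diaphragms of fenestrae (-0.40), Cldn5, a tight junction claudin (-0.22), the sialomucin genes Emcn (-0.13) and Cd34 (0.10), Clec14a, a lectin-like receptor (-0.13), Ecscr, a regulator of endothelial migration (0.08), and Icam2, an adhesion ligand for leukocytes (0.01). Cd34, which fibroblasts and blood progenitors also express, varied most among the placebo tumours, at 7.56, 8.73 and 6.87, around E2 values of 8.04, 7.61 and 7.80, and its log2 change was -0.33 without placebo replicate 3.

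All 7 receptor and signalling genes had lower means in the E2 tumours, and 0 of them passed on 6 arrays. Tek, the receptor of the angiopoietins, measured 4.66, 4.50 and 4.81 in the E2 tumours, against 5.10, 5.23 and 5.65 in the placebo tumours. Its groups were apart, placebo replicate 3 was the highest, and the log2 change was -0.67 (SE 0.17, limma adjusted p = 0.137). Tie1, its relative without a ligand of its own, measured 5.15, 5.14 and 5.24 in the E2 tumours, against 5.49, 5.40 and 5.74 in the placebo tumours.

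The axon guidance receptor gene Robo4, largely endothelial, measured 5.09, 4.83 and 4.86 in the E2 tumours, against 5.17, 5.35 and 5.30 in the placebo tumours. S1pr1, the sphingosine-1-phosphate receptor gene that vessels share with lymphocytes, measured 5.62, 5.35 and 5.63 in the E2 tumours, against 5.75, 6.03 and 5.88 in the placebo tumours. Neither gene overlapped between the groups, nor did Tie1, and the 3 log2 changes lay between -0.37 and -0.35 (limma adjusted p from 0.191 to 0.236). Ptprb, the phosphatase that opposes Tek (-0.35), Nos3, the endothelial nitric oxide synthase (-0.23), and Aplnr, the apelin receptor (-0.07), overlapped between the groups. After median centring the change of Aplnr was 0.01.

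The 3 secreted and matrix genes did not pass. Mmrn2, a matrix glycoprotein that binds the products of Cd93 and Clec14a, measured 4.95, 4.78 and 4.97 in the E2 tumours, against 5.17, 5.36 and 5.19 in the placebo tumours. Its groups were separate, at a log2 change of -0.34 (SE 0.10, limma adjusted p = 0.178). Vwf, the clotting glycoprotein stored by endothelium and platelets, measured 5.06, 4.82 and 5.26 in the E2 tumours, against 5.20, 5.38 and 5.83 in the placebo tumours, and these values overlapped. Egfl7, an endothelial matrix factor, measured 6.01, 5.95 and 6.06 in the E2 tumours, against 6.22, 6.04 and 5.87 in the placebo tumours, a change of -0.04 that was 0.04 after median centring.

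All 6 transcription factor genes had lower means in the E2 tumours, 0 passed on 6 arrays, and Fli1 fell without placebo replicate 3. Erg, an ETS factor that maintains endothelial identity, measured 4.84, 4.82 and 4.75 in the E2 tumours, against 4.97, 5.10 and 5.15 in the placebo tumours (log2 change -0.27, SE 0.09). Fli1, an ETS factor of endothelium and blood cells, measured 5.64, 5.46 and 5.68 in the E2 tumours, against 6.12, 6.48 and 5.68 in the placebo tumours (log2 change -0.50, SE 0.21). Neither gene overlapped between the groups, but for Fli1 the gap between E2 replicate 3 and placebo replicate 3 was less than 0.01. Of the SOX factors of early vessel growth, Sox17 measured 4.53, 4.54 and 4.33 in the E2 tumours, against 4.73, 4.89 and 4.69 in the placebo tumours. Sox7 measured 4.31, 4.30 and 4.30 in the E2 tumours, against 4.56, 4.52 and 4.45 in the placebo tumours. Both were separated at low signals, Sox7 close to the lower quartile of genes, with log2 changes of -0.30 and -0.21. Sox18, the third of them (-0.15), and Tal1, a factor of blood and endothelial progenitors (-0.16), overlapped between the groups.

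**Figure D2:**
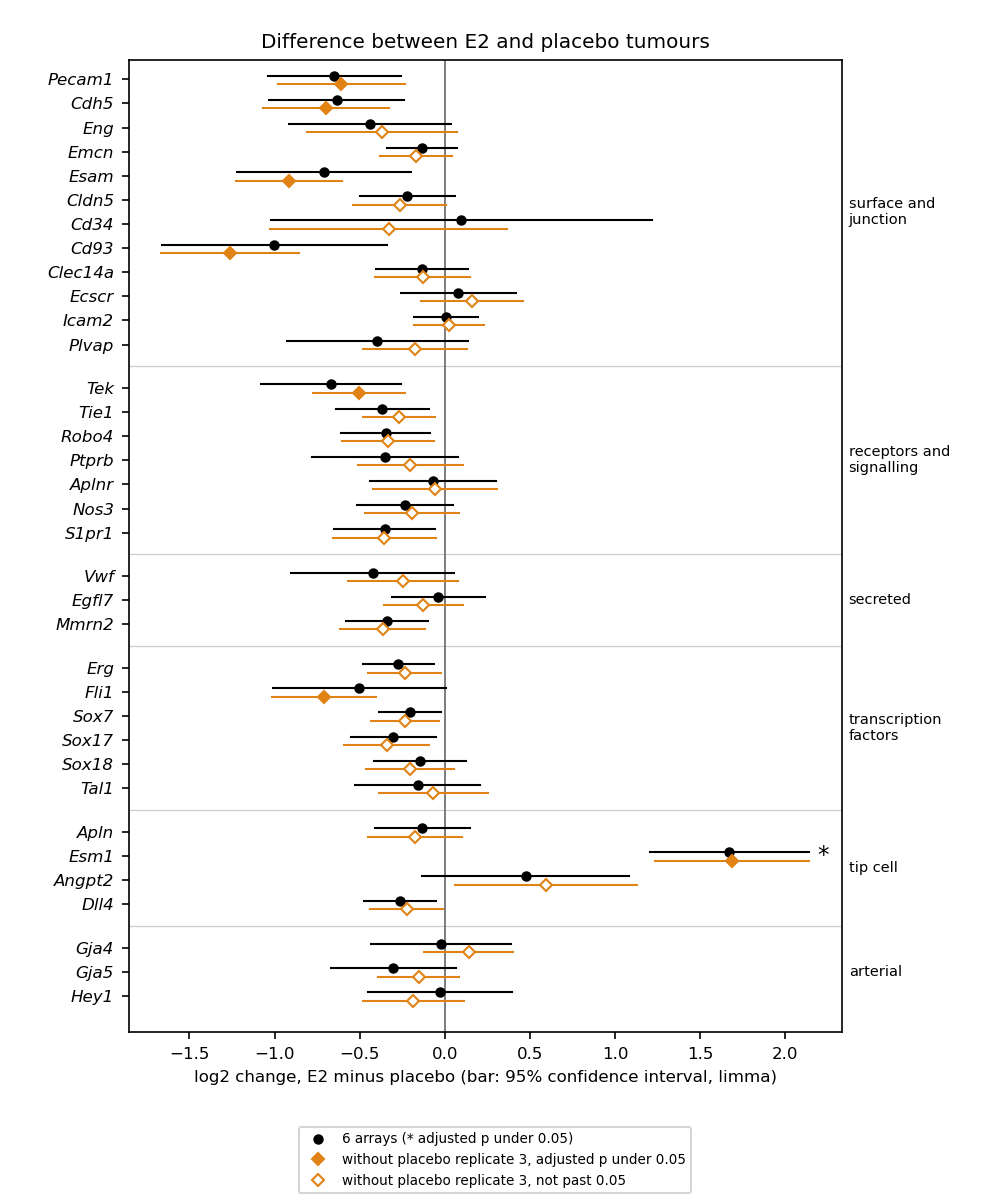
Log2 change, E2 minus placebo (x axis), of each endothelial marker gene with its 95% confidence interval from limma, on 6 arrays (black) and without placebo replicate 3 (orange, filled where the adjusted p was under 0.05). Esm1 at 1.67 is the one black point with an asterisk, and the filled orange points left of 0 are Cd93, Esam, Fli1, Cdh5, Pecam1 and Tek.

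Of the 4 tip cell genes, Esm1 was the one that passed, and the means of Apln and Dll4 were lower in the E2 tumours. Angpt2, the angiopoietin that loosens vessels by opposing Tek signalling, measured 5.64, 5.51 and 4.79 in the E2 tumours, against 4.78, 4.66 and 5.08 in the placebo tumours. E2 replicates 1 and 2 were above every placebo tumour, while E2 replicate 3 lay among them, and the log2 change of 0.47 (SE 0.25) did not pass (limma adjusted p = 0.404). E2 replicate 3 also held the lowest E2 value of Esm1. Without E2 replicate 3 the change of Angpt2 was 0.74.

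Dll4, the Notch ligand of tip cells and arteries, measured 4.91, 4.79 and 4.84 in the E2 tumours, against 5.02, 5.12 and 5.19 in the placebo tumours. It lay lower in every E2 tumour, at a log2 change of -0.26 (SE 0.09, limma adjusted p = 0.217), a size close to the median of the pan-endothelial genes (-0.32). Apln, the apelin peptide gene, measured 5.12, 5.34 and 4.98 in the E2 tumours, against 5.31, 5.33 and 5.20 in the placebo tumours, with overlap (log2 change -0.13). The median over the 4 tip cell genes was 0.17 log2 units, with 1 higher call, that of Esm1.

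None of the 3 arterial genes passed or separated the groups. Gja4, a connexin of arterial endothelium, measured 5.05, 4.90 and 4.73 in the E2 tumours, against 4.73, 4.78 and 5.24 in the placebo tumours. Gja5, a second arterial connexin, measured 4.51, 4.35 and 4.42 in the E2 tumours, against 4.49, 4.67 and 5.02 in the placebo tumours. In both genes placebo replicate 3 was the highest of all arrays.

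Hey1, a Notch target that represses transcription in arterial cells, measured 5.30, 5.21 and 5.22 in the E2 tumours, against 5.23, 5.62 and 4.96 in the placebo tumours. The log2 changes were -0.02 for Gja4 (0.14 without placebo replicate 3), -0.30 for Gja5 (-0.15 without it) and -0.03 for Hey1 (-0.19 without it). Those of Gja4 and Hey1 changed sign with repeated quantile normalization (0.05 each) and with median centring (0.06 and 0.05). The 95% confidence intervals on 6 arrays were -0.44 to 0.39 for Gja4, -0.67 to 0.07 for Gja5 and -0.45 to 0.39 for Hey1. With 3 arrays a group, changes within these bounds were not excluded.

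To set the tip cell and arterial genes against the endothelial signal of the same tumour, the mean of Pecam1 and Cdh5 was subtracted on each array. Relative to that mean, Esm1 was 2.31 log2 units higher in the E2 tumours than in the placebo tumours, Angpt2 1.12, Gja4 0.62, Hey1 0.61, Apln 0.51, Dll4 0.38 and Gja5 0.34. The E2 values lay above all placebo values for Esm1, Angpt2, Apln, Dll4 and Hey1, and overlapped them for Gja4 and Gja5. Of the pan-endothelial genes, Emcn, Cldn5, Clec14a, Ecscr, Icam2, Aplnr, Nos3, S1pr1, Egfl7, Mmrn2 and Sox7 did so too, and the others overlapped. Cd34 (0.74, with overlap), Ecscr (0.72), Icam2 (0.65) and Egfl7 (0.60) differed more than Apln, Dll4 and Gja5, while Cd93 (-0.36), Esam (-0.07), Tek (-0.03) and Pecam1 (-0.01) were lower. Higher relative values were thus not particular to tip cell or arterial genes. Esm1 and Angpt2 differed more than any pan-endothelial gene of the set, but Kdr, a VEGF receptor gene outside it, differed by 2.71. The values of Angpt2 overlapped between the groups before the subtraction. The choice of scale mattered, because Pecam1 and Cdh5 have larger differences than most of the set. Relative to the median of the 28 pan-endothelial genes the differences were 1.98 for Esm1, 0.78 for Angpt2, 0.28 for Gja4, 0.28 for Hey1, 0.18 for Apln, 0.05 for Dll4 and 0.01 for Gja5. An exact permutation test of 3 against 3 cannot go below p = 0.10, so these relative values are given as a description, and probe sets may compress changes unequally.

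**Figure D3:**
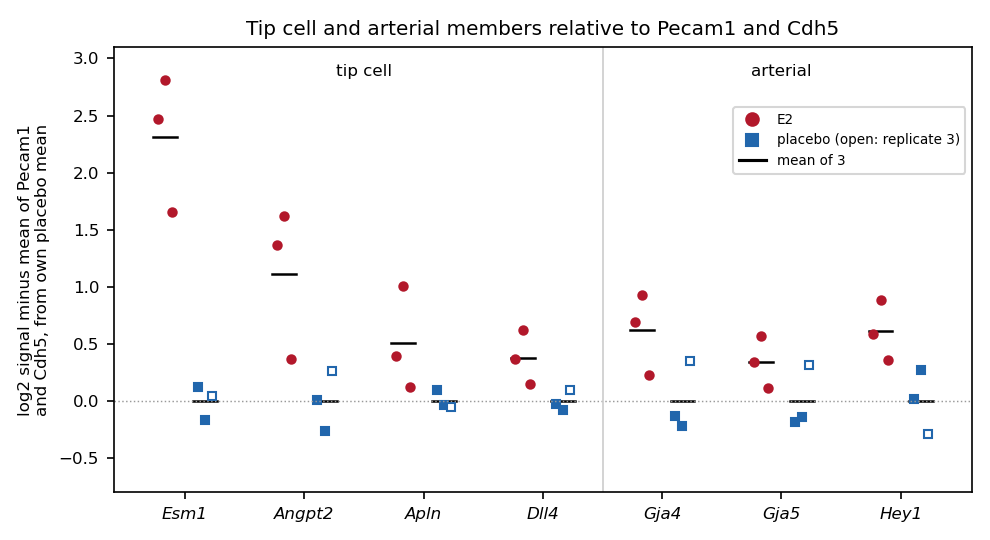
Log2 signal of the tip cell and arterial genes minus the mean of Pecam1 and Cdh5 on the same array, shown from each gene's own placebo mean (y axis), with 3 E2 tumours (red circles) left of 3 placebo tumours (blue squares, replicate 3 open) and a bar at each mean. The E2 means lie 2.31 above the placebo mean for Esm1 and 1.12 for Angpt2, with E2 replicate 3 the lowest E2 point in every gene shown.

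By role, the median log2 change was -0.31 for surface and junction genes, -0.35 for receptors and signalling, -0.34 for secreted genes and -0.24 for transcription factors. It was 0.17 for tip cell genes and -0.03 for arterial genes, or 0.21 and -0.15 without placebo replicate 3. The pan-endothelial genes spanned -1.0 to 0.10, with a median of -0.32, and 25 of the 28 were below 0. Among E2 tumours, replicate 2 held the lowest value for 23 of the 35 genes, replicate 3 for 10 and replicate 1 for 2. The median level of the pan-endothelial genes was 5.29, 5.13 and 5.34 in the E2 tumours, against 5.46, 5.52 and 5.71 in the placebo tumours, without overlap.

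**Figure D4:**
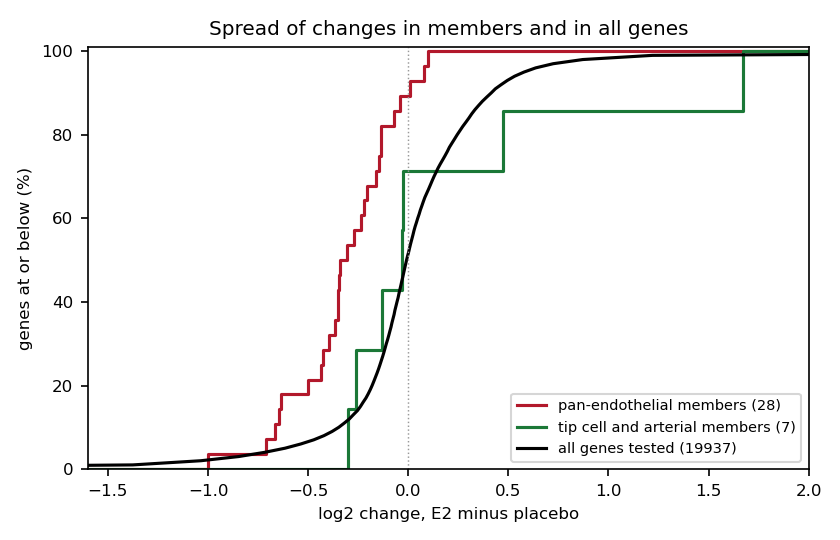
Cumulative share of genes (y axis, percent) at or below each log2 change, E2 minus placebo (x axis), for the 28 pan-endothelial genes (red), the 7 tip cell and arterial genes (green) and all 19937 genes tested (black). The red curve crosses 50% near its median of -0.32, left of the black curve at -0.01, and the right-hand steps of the green curve are Angpt2 at 0.47 and Esm1 at 1.67.

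Genes that act with the endothelial set were read from lists of other genes. Of 10 measured VEGF ligand and receptor genes, 1 rose and 0 fell: Kdr, the main VEGF receptor of endothelium, measured 8.63, 8.40 and 9.00 in the E2 tumours, against 6.48, 6.43 and 6.93 in the placebo tumours (log2 change 2.07, limma adjusted p = 0.0136). Relative to Pecam1 and Cdh5 its difference was 2.71, and which cells made the Kdr signal was not tested. Of the 10, 4 had lower means, each without overlap. These were the receptor genes Flt1 (-0.35) and Flt4 (-0.50, limma adjusted p = 0.0555) and the ligand genes Vegfc (-0.55) and Vegfd (-1.12). Nrp1 (1.23), Vegfa (1.36) and Vegfb (0.52) were higher without overlap but did not pass, and the list median was 0.25. Of 8 further tip cell genes, Col4a1 and Col4a2, the paired basement membrane collagen chains, rose by 1.26 and 1.35 on the log2 scale (limma adjusted p = 0.0160 and 0.00615) and 0 fell, while 5 had lower means and the list median was -0.10. Fibroblasts and epithelia make these collagens as well. Of 19 further endothelial genes, Ramp2, a partner of the adrenomedullin receptor, rose by 0.85 (limma adjusted p = 0.0121), Lmo2, a cofactor of Tal1 also found in blood cells, fell by 0.90 (adjusted p = 0.0254), and 15 had lower means. The receptor gene Calcrl of that list was lower without overlap (-0.75) but did not pass (limma adjusted p = 0.0708). Of 11 angiopoietin and Notch partner genes, 0 passed, and the smallest p belonged to Ephb4, the venous ephrin receptor (log2 change 0.29), and Notch4, a Notch receptor of endothelium (-0.21). Without placebo replicate 3, limma called 3 VEGF genes higher and 3 lower, 3 further tip cell genes higher and 2 lower, 2 further endothelial genes higher and 7 lower, and 1 angiopoietin or Notch partner higher and 2 lower. Over all genes that fit called 6.4% higher and 5.21% lower, and 51.7% had a lower mean on 6 arrays.

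Markers of other cells were read beside the endothelial genes, and their part in the endothelial values was not tested. For comparison with the counts below, 51.7% of all genes had a lower mean in the E2 tumours. Macrophages also express Cd93 and Fli1, and the macrophage genes had lower means for 7 of 7, with the list mean at 5.87 to 6.29 in the E2 tumours, against 6.20 in placebo replicate 3 and 7.25 to 7.28 in the other placebo tumours. Of them Ptprc, the common leukocyte antigen, fell by 1.11 (limma adjusted p = 0.0388). Pericyte genes, which mark the cells that wrap small vessels, had lower means for 7 of 8, at 5.89 to 6.13 in the E2 tumours and 6.23 to 6.53 in the placebo tumours. Rgs5, a pericyte regulator of G proteins, differed by -1.24 (adjusted p = 0.114) and Ndufa4l2 by 0.93 (0.124).

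Fibroblast genes had lower means for 4 of 6, at 8.30 to 8.77 in the E2 tumours and 8.66 to 9.21 in the placebo tumours, with Col3a1 at -1.40 (limma adjusted p = 0.0704) and Lum at -1.22 (0.147). Mesothelial genes were lower for 5 of 5, at 6.40 to 6.74 in the E2 tumours and 7.33 to 8.76 in the placebo tumours, and the smallest p belonged to Lrrn4 (-3.14, limma adjusted p = 0.0959) and Msln (-1.28, 0.185). Erythroid genes were lower for 2 of 2, with log2 changes of -0.91 for Alas2 and -0.28 for Slc4a1, at 4.91 to 5.08 in the E2 tumours and 5.25 to 5.99 in the placebo tumours. Lymphatic endothelial genes were lower for 3 of 5, at 5.01 to 5.20 in the E2 tumours against 5.84 in placebo replicate 3 and 5.09 to 5.31 in the other placebo tumours (Pdpn -1.05, Mmrn1 -0.88, the last -0.26 without placebo replicate 3). Lyve1 (0.62) and Prox1 (0.12), a receptor and a transcription factor that define lymphatic endothelium, had higher means, and the list median of -0.40 was -0.04 without placebo replicate 3.

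Platelet genes lay at 4.54 to 4.62 in the E2 tumours and 4.62 to 4.94 in the placebo tumours, lower for 3 of 4 (Ppbp -0.39, Gp9 -0.27). T and B cell genes lay at 3.93 to 4.12 in the E2 tumours, against 4.41 in placebo replicate 3 and 4.11 to 4.20 in the other placebo tumours, near or below the lower quartile of genes. Their means were lower for 6 of 6 (Cd4 -0.37, Ms4a1 -0.20), and the list median of -0.19 was -0.08 without placebo replicate 3. The enterocyte genes were lower for 9 of 9 (Apoa4 -2.37, Lct -1.15), and without placebo replicate 3 their median change was -0.02. In these lists of other cells, Ptprc apart, 0 genes passed in limma on 6 arrays. Without placebo replicate 3, limma called 6 of 7 macrophage genes, 4 of 8 pericyte genes, 4 of 6 fibroblast genes and 4 of 5 mesothelial genes lower, and 1 pericyte gene and 1 fibroblast gene higher. It called 1 lymphatic, 1 platelet and 1 erythroid gene lower as well, and 0 of the enterocyte and of the T and B cell genes. Over all genes that fit called 5.21% lower and 6.4% higher.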

How the data were processed

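RNA from 6 tumours was hybridised to whole-transcript mouse arrays, 1 per tumour, with biotin label, per the labels' protocols. The authors deposited log2 signals made by RMA, per the submitters' processing notes, which name no software version. RMA removes background, makes array distributions alike and summarises probes. Groups and replicate numbers came from the sample titles, and the design text calls the tumours biological replicates. All 6 sample columns were mapped, with 0 left over.

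Of 34760 probe sets, 21640 (62.3%) had 1 symbol in the platform annotation, 1321 had several and 11799 were not listed there. The brightest probe set stood for a gene, which left 19937 genes. E2 and placebo were fitted with lmFit and eBayes of limma 3.58.1 (R 4.3.3), without covariates, two-sided, with Benjamini-Hochberg adjustment over all genes and a threshold of 0.05. On simulated data for these 19937 genes, 55.0% of log2 changes of 1 and 88.0% of changes of 2 were recovered, with 0 in the wrong direction and 6 false calls. The simulated noise was independent between genes and arrays, so no array stood apart as placebo replicate 3 does. Changes smaller than 1, where most members lay, were not simulated.

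The members, their roles and the 13 lists of other genes (100 of 109 genes measured) were chosen with earlier results of these data known. Every member is accounted for. Values per array are given for the called gene, Pecam1, Cdh5, the tip cell and arterial genes and the 4 members of smallest p in each role. Of other lists, log2 changes are given for called genes or the 2 of smallest p, and values per array for Kdr alone. Cd34's values per array, Lyve1, Prox1, Calcrl, the VEGF genes besides Kdr, the pan-endothelial genes given on the relative scale and the promoters shown were chosen after values were seen. Figures were drawn with matplotlib 3.10.9 in Python 3.11.15.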

Additional observations from a re-analysis of the deposited data

How the results depend on the processing

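Of the 35 genes, 28 kept the sign of their log2 change under all 14 alternatives that measured them, among 471 values. The signs turned for 7 genes with changes under 0.1 log2 units, none of them past the threshold. Cd34 was -0.33 without placebo replicate 3, -0.01 without E2 replicate 1, -0.0848 after repeated quantile normalization and -0.23 with array weights, and without each array in turn it ranged from -0.33 to 0.60. Gja4 was 0.0456 with quantile normalization, 0.0594 with median centring and 0.14 with array weights (-0.12 to 0.14 without each array), and Hey1 was 0.0477 and 0.0545 with these normalizations (-0.19 to 0.15). Aplnr was 0.0128 and Egfl7 0.0441 with median centring, and without each array these ranged from -0.18 to 0.0754 and from -0.13 to 0.0503, Ecscr from -0.0236 to 0.17 and Icam2 from -0.0217 to 0.0252. The number of members called higher was 1 on 6 arrays, 0 to 1 without each array and 0 with the replicate block, and the number called lower was 0, 0 to 6 without each array and 6 with array weights. The median change of the set, -0.26, was -0.19 after quantile normalization, -0.18 after median centring and -0.36 over the 16 genes above the median signal (-0.32 to -0.22 without each array). Over all genes tested, the median change in these settings was 0.01, 0.08 and 0.14, in that order. Among the 16 genes above the median signal, Esm1 alone was left of the tip cell genes (1.67), and no arterial gene was left. Without each array, the medians ranged from -0.36 to -0.25 for pan-endothelial, 0.07 to 0.34 for tip cell and -0.15 to -0.02 for arterial genes. Relative to the pan-endothelial median in place of Pecam1 and Cdh5, Apln was 0.18, Dll4 0.0456, Gja4 0.28, Gja5 0.00754 and Hey1 0.28. Relative to Pecam1 and Cdh5, the ranges without each array were 2.06 to 2.64 for Esm1, 0.86 to 1.49 for Angpt2, 0.26 to 0.70 for Apln, 0.26 to 0.50 for Dll4, 0.46 to 0.81 for Gja4, 0.23 to 0.50 for Gja5 and 0.47 to 0.75 for Hey1. Where no cause is visible from the setting, the cause was not tested.

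Equal replicate numbers did not pair the tumours: deviations of same-numbered arrays correlated at -0.03, -0.18 and -0.13, and 0 of 6 arrays matched their own number best. With the replicate block 10 genes were called higher and 0 lower over all genes, against 211 and 65 without it, and Esm1 had an adjusted p of 0.135. Some other settings also moved the all-gene counts by more than 1.5 times. Leaving out placebo replicate 1 called 62 genes higher and 16 lower, replicate 2 called 170 and 34, and replicate 3 called 1276 and 1039. Leaving out E2 replicate 1 called 31 and 0, replicate 2 called 37 and 6, and replicate 3 called 37 and 7. Array weights called 1026 and 760, and median centring 363 and 62. The 14 members with an unadjusted limma p under 0.05, in either direction, were 8 to 16 without each array in turn (12 without E2 replicate 1), 10 with the replicate block, 11 after quantile normalization, 9 after median centring and 7 of the 16 genes above the median signal. The share of all genes at this p was not counted under these alternatives.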
